A study of Mus musculus with 6 samples.

Results

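This account covers 10 receptor genes of the TNF receptor superfamily that T cells use, out of 25759 gene identifiers measured in adaptive regulatory T cells (aTreg) with and without the bone morphogenetic protein receptor BMPR1a. The genes were chosen by name: Tnfrsf1a (TNFR1), Tnfrsf1b (TNFR2), Tnfrsf4 (OX40), Tnfrsf8 (CD30), Tnfrsf9 (4-1BB), Tnfrsf14 (HVEM), Tnfrsf18 (GITR), Tnfrsf25 (DR3), Cd27 and Fas. All 10 were found in the deposited table, and 9 passed the filter on low values (a mean of at least 1 FPKM over the libraries). Tnfrsf8 did not. FPKM divide the fragments of a gene by its transcript length and by how many fragments the library mapped, so levels can be compared between genes per length.

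Both groups came from C57BL/6 mice of 8 to 12 weeks that carried a Foxp3GFP reporter transgene. The wild type (WT) group had 3 libraries from wild type mice, and the BMPR1a-deficient group had 3 from mice labelled BMPR/CD4cre. In these a Cre recombinase under Cd4 control, which acts in developing T cells of both the CD4 and the CD8 lineage, removes the receptor. Lymph node and spleen cells were cultured for 3 days with concanavalin A, a lectin that activates T cells, at 2 µg/ml. The cytokine IL-2 was added at 10 ng/ml, with 3 ng/ml of TGF-beta. CD4+Foxp3GFP+ cells were sorted, so cells that carried Foxp3 before culture were not set apart. Nothing in the labels says that the libraries of a group came from separate animals or cultures, so the p-values speak for the scatter of these samples alone, and that scatter may be technical.

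Receptors of this family are trimeric surface proteins with cysteine-rich extracellular repeats that bind TNF-like ligands. Most of those studied here signal through TRAF adaptor proteins to NF-kappaB and act as costimulators that promote survival and division of activated T cells. TNFR1, DR3 and Fas carry a cytoplasmic death domain and can also couple to caspase-8. Regulatory T cells are known for high levels of GITR, OX40, 4-1BB and TNFR2, and TNFR2 signalling is known to favour their expansion.

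Several facts of the whole series bear on these values. Depth, estimated from the smallest steps in FPKM, was about 30200000 to 38100000 fragments per library. Bmpr1a, the deleted gene, was at 1.39, 2.34 and 1.31 FPKM in WT and at 0.439, 0.720 and 0.691 in BMPR1a-deficient libraries (limma adjusted p = 0.183). BMPR1a-deficient replicate 1 stood apart: its 13 mitochondrially encoded protein genes summed to 5335 FPKM, against 44657 to 53788 in the other 5 libraries. The 10 T cell and Treg markers, among them Cd4, Cd3e and Foxp3, were above 1 FPKM in every library. Their sums were 2493 to 2676 FPKM in WT and 2238 to 2528 in BMPR1a-deficient aTreg. Limma put 0 of the 10 at an adjusted p under 0.05. Ikzf2 lay higher in every BMPR1a-deficient library than in every WT one, and Ctla4, Cd247 and Cd3g lower. Over all tested genes 15.9% lay higher and 10.4% lower in this way.

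Of the 9 receptors tested, Tnfrsf1b and Tnfrsf9 rose in BMPR1a-deficient aTreg and 0 fell, in limma with Benjamini-Hochberg adjustment over all genes at 0.05. Over all 13413 genes tested, 0.746% were called higher, 0.321% lower and 1.07% in either direction. Those are 100 higher and 43 lower genes, or 88 and 70 with quantile normalization. Tnfrsf18 also lay higher in every BMPR1a-deficient library and Tnfrsf1a lower, but neither passed the threshold. In all, 4 of the 9 receptors had groups that did not overlap, against 26.3% of all tested genes. Of those 4, 3 lay higher and 1 lower, where 15.9% and 10.4% of all tested genes did so. At an unadjusted p under 0.05 in limma there were 4 of the 9 receptors, against 15.2% of all tested genes (2034 of 13413). The median log2 fold change of the 9 was 0.41, against 0.04 over all tested genes. For the other 5 tested receptors the groups overlapped.

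The upstream sequences of the TNF receptor pair and of Tnfrsf9 are given because Tnfrsf1b and Tnfrsf9 were the receptors past the threshold and Tnfrsf1a shares its ligand with Tnfrsf1b. All come from RefSeq windows on GRCm38.p6, in which all 10 receptors had an entry (12 windows), and are read 5′ to 3′ on the strand of the gene. Bases that match a searched motif are in capitals, the GGCGCC element in Tnfrsf1a and the overlapping NF-kappaB matches in Tnfrsf9. The Tnfrsf1b stretch is chr4:145246871-145247120 on the minus strand and ends just before the annotated start. The Tnfrsf1a stretch is chr6:125349509-125349722 on the plus strand and leaves out the part of the window that lies in an annotated exon. RefSeq lists a pair of starts for Tnfrsf9, both on the plus strand and both inside the longer gene model of GENCODE. The stretch before the first is chr4:150919905-150920154, and the short one near the second is chr4:150927947-150927976.
Tnfrsf1b: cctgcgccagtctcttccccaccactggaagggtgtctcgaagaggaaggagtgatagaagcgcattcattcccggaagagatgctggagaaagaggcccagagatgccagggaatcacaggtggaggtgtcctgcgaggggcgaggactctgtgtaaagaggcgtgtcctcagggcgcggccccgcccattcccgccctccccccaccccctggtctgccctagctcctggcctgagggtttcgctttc
Tnfrsf1a: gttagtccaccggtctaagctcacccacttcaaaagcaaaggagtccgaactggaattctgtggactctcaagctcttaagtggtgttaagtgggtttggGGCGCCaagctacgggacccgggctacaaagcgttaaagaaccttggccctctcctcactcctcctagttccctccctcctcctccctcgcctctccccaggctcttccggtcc
Tnfrsf9, before the first start: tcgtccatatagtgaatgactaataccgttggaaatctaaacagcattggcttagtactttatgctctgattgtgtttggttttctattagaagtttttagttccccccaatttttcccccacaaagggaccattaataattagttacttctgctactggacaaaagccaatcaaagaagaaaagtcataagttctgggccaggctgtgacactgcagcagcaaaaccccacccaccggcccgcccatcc
Tnfrsf9, near the second start: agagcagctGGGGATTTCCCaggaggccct

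The motifs were searched on both strands in the 250 bases before each start. They were the NF-kappaB consensus, the AP-1 site TGANTCA, the SMAD palindrome GTCTAGAC, the GC-rich SMAD element GGCGCC and the TATA box TATAAA. In 32851 windows of the same length these were found in 7.25%, 6.75%, 0.167%, 9.59% and 12.4%. The window before the second Tnfrsf9 start held the NF-kappaB consensus in overlapping frames beginning 43 and 42 bases before the start, and the AP-1 letters TGAGTCA 15 bases before it. The NF-kappaB consensus also matched in the windows of Tnfrsf8 and of the second Tnfrsf25 start, and AP-1 in those of Tnfrsf8 and Fas. GGCGCC matched in the Tnfrsf1a window, 114 bases before the start. The Tnfrsf1b window and the first Tnfrsf9 window held none of the 5 motifs. A match is a description of letters, not of binding. The GC content of the 250 bases was 62.8% before Tnfrsf1b, 55.6% before Tnfrsf1a and 43.2% before the first Tnfrsf9 start, with a median of 52.4% over all windows.

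The receptors of TNF are described first, since Tnfrsf1b had the largest absolute fold change of the 9. Tnfrsf1b (ENSMUSG00000028599, chromosome 4, 145213463 to 145246870 in GRCm38) encodes TNFR2, the receptor that binds membrane TNF well and lacks a death domain. It was at 54.0, 36.0 and 35.8 FPKM in WT and at 98.0, 102 and 112 in BMPR1a-deficient libraries. Every BMPR1a-deficient library was above every WT library, and WT replicate 1 was the highest of its group. The group means were 41.9 ± 10.4 and 104 ± 7.02 FPKM (SD, n = 3 each), a ratio of 2.48. The log2 fold change was 1.31 (SE 0.182, 95% interval 0.87 to 1.76, limma adjusted p = 0.0410). An exact two-sided permutation test of the 6 values gave p = 0.1, the smallest that 3 against 3 samples allow. Upper-quartile scaling ended the call (limma adjusted p = 0.0551), as did testing without the filter on low values (0.0636). With 1 library removed at a time, it passed in 1 of 6 fits, that without WT replicate 1. Without BMPR1a-deficient replicate 1 the adjusted p in limma was 0.0692, with a log2 fold change of 1.36.

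Tnfrsf1a (ENSMUSG00000030341, chromosome 6, 125349362 to 125362484) encodes TNFR1, which most cell types carry and which recruits TRADD through its death domain. It was at 14.3, 11.0 and 11.7 FPKM in WT and at 6.70, 9.51 and 9.90 in BMPR1a-deficient libraries. The groups did not overlap, with the BMPR1a-deficient values below, and replicate 1 of that group was the lowest. The log2 fold change was -0.47 (SE 0.173, limma adjusted p = 0.299), which did not pass the threshold.

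Within each library the FPKM of Tnfrsf1b divided by that of Tnfrsf1a was 3.77, 3.26 and 3.05 in the WT libraries, while the BMPR1a-deficient ones gave 14.6, 10.7 and 11.3. The lowest BMPR1a-deficient ratio was above the highest WT ratio. On the log2(FPKM + 1) scale the difference between the receptors had a WT mean of 1.67 ± 0.160 and a BMPR1a-deficient mean of 3.45 ± 0.207 (SD, n = 3 each), 1.79 apart. The exact two-sided permutation p was 0.1, the smallest possible here, and 0.2 after Benjamini-Hochberg adjustment over the 2 receptor pairs compared. Since both genes were read in the same libraries, a scaling factor of a whole library does not enter the FPKM ratio.

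**Figure D1:**
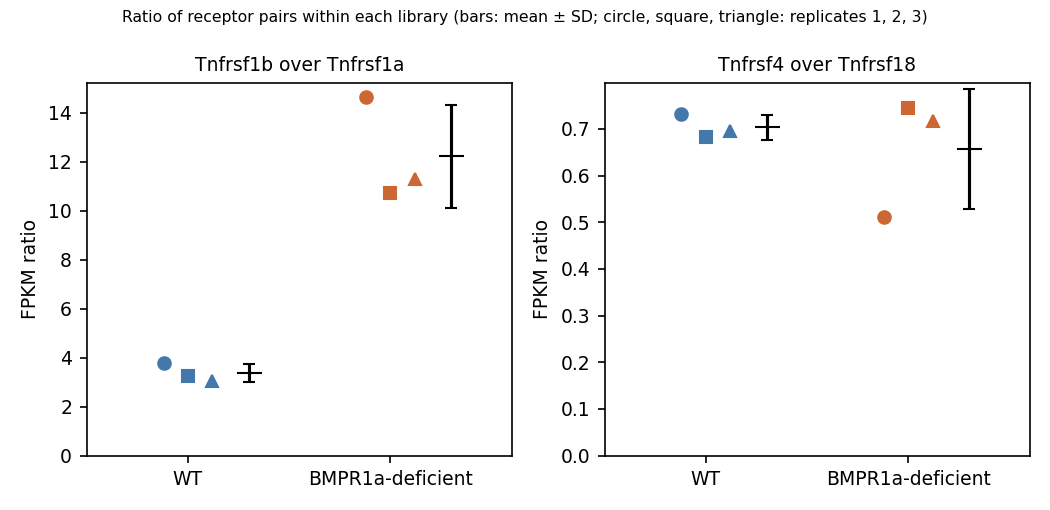
FPKM ratio of Tnfrsf1b to Tnfrsf1a (left) and of Tnfrsf4 to Tnfrsf18 (right) in each library, by group, with circles, squares and triangles for replicates 1, 2 and 3 and bars for the mean ± SD of 3 libraries. The Tnfrsf1b ratios do not overlap between groups (3.05 to 3.77 in WT, 10.7 to 14.6 in BMPR1a-deficient), while the Tnfrsf4 ratios do.

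Markers of other cells were measured beside Tnfrsf1b because myeloid cells and B cells also carry TNFR2. The summed FPKM of 12 myeloid and dendritic markers was 128, 28.2 and 56.0 in the WT libraries, while the BMPR1a-deficient ones gave 17.8, 55.9 and 109.5, so the groups overlapped. The sum was highest in WT replicate 1 within WT, as Tnfrsf1b was, and had the same order as Tnfrsf1b over the BMPR1a-deficient libraries, and its part in the Tnfrsf1b values was not tested. Of these 12 markers, 5 were below 1 FPKM in every library, the dendritic cell genes Xcr1, Siglech, Flt3, Zbtb46 and Itgax. The 8 B cell markers summed to 30.3 to 61.1 FPKM in WT and 44.1 to 59.0 in BMPR1a-deficient libraries, and the 8 CD8 T and NK cell markers to 45.3 to 60.6 and 48.8 to 95.3. Of the 4 CD8 T and NK cell markers tested, 1 lay higher without overlap and 0 lower, where 15.9% and 10.4% of all tested genes did so. That was Cd8a, at 11.7, 9.56 and 8.80 FPKM in WT and 13.8, 17.2 and 29.1 in BMPR1a-deficient libraries (limma adjusted p = 0.236). Its part in the receptor values was not tested. In bulk RNA, fewer cells of a type and less RNA per cell cannot be told apart.

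Tnfrsf9 (ENSMUSG00000028965, chromosome 4, 150914562 to 150946102) encodes 4-1BB, a costimulator that appears on T cells after activation and signals through TRAF1 and TRAF2. It was at 129, 142 and 127 FPKM in WT and at 224, 263 and 242 in BMPR1a-deficient libraries. The libraries of a group lay close together and the groups were far apart. The mean was 1.83 times the WT mean, and the log2 fold change was 0.87 (SE 0.114, 95% interval 0.59 to 1.15, limma adjusted p = 0.0380), with an exact permutation p of 0.1. With 1 library removed at a time, the log2 fold change was 0.81 to 0.93 and the limma adjusted p 0.0293 to 0.190, and 1 of the 6 fits passed, that without BMPR1a-deficient replicate 1. The gene partly overlaps the span of Camta1 on the opposite strand but shares 0 exon bases with it, and Camta1 was at 2.82 to 6.65 FPKM.

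Tnfrsf18 (ENSMUSG00000041954, chromosome 4, 156026164 to 156028895) encodes GITR, a costimulatory receptor that regulatory T cells carry constitutively. It was at 132, 146 and 127 FPKM in WT and at 191, 192 and 200 in BMPR1a-deficient libraries. The groups did not overlap and the BMPR1a-deficient libraries were nearly equal. The log2 fold change was 0.52 (SE 0.104, 95% interval 0.27 to 0.78, limma adjusted p = 0.0940). An annotated antisense gene, Gm16008, shares 414 bases (27.2%) of the Tnfrsf18 exons and was at 1.07, 1.48 and 0.847 FPKM in WT and 1.75, 1.79 and 1.74 in BMPR1a-deficient libraries. How strand was handled is not given in the sources used here, so reads from the shared bases cannot be told apart.

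Tnfrsf4 (ENSMUSG00000029075, chromosome 4, 156013843 to 156016612) encodes OX40, whose signal prolongs survival of activated CD4 T cells, and is the nearest protein-coding neighbour of Tnfrsf18 upstream. It was at 96.6, 99.7 and 88.3 FPKM in WT and at 97.3, 143 and 143 in BMPR1a-deficient libraries. BMPR1a-deficient replicate 1 lay among the WT values and the other two well above them. The log2 fold change was 0.41 (SE 0.178, limma adjusted p = 0.355). Without that library it was 0.59 and passed the threshold (limma adjusted p = 0.0481).

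The ratio of Tnfrsf4 to Tnfrsf18 was 0.733, 0.682 and 0.695 in the WT libraries, while the BMPR1a-deficient ones gave 0.510, 0.744 and 0.717. On the log2(FPKM + 1) scale the difference between the genes had a WT mean of -0.50 ± 0.0531 and a BMPR1a-deficient mean of -0.62 ± 0.297 (SD, n = 3 each). The exact two-sided permutation p was 0.9, also after adjustment over the 2 pairs. Replicate 1 set the spread of the BMPR1a-deficient group, and without it the difference of the groups turned from -0.12 to 0.053.

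Tnfrsf14 (ENSMUSG00000042333, chromosome 4, 154921933 to 154928563) encodes HVEM, which binds the TNF-like ligand LIGHT and, outside that family, the immunoglobulin-type receptors BTLA and CD160. It was at 37.4, 37.5 and 45.3 FPKM in WT and at 74.5, 42.4 and 48.7 in BMPR1a-deficient libraries. The highest value was that of BMPR1a-deficient replicate 1, and the other two lay near the WT values. The mean of the BMPR1a-deficient group was 1.38 times the WT mean with all libraries and 1.14 times without replicate 1 (log2 fold change 0.42, SE 0.224, limma adjusted p = 0.427 with all).

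Tnfrsf8 (ENSMUSG00000028602, chromosome 4, 145267137 to 145315164) encodes CD30, a receptor of activated lymphocytes. It was at 0.207, 0.155 and 0.209 FPKM in WT and at 0.367, 0.326 and 0.326 in BMPR1a-deficient libraries. The groups did not overlap, but all 6 values were below the filter of 1 FPKM. When every gene above 0 in any library was tested, its limma adjusted p was 0.0917. On the log2(FPKM + 1) scale its difference of 0.17 understates the ratio of the means, 1.79.

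Cd27 (ENSMUSG00000030336, chromosome 6, 125232622 to 125237010), a costimulator that naive T cells already carry, was the receptor with the highest mean in WT. It was at 254, 204 and 249 FPKM in WT and at 164, 264 and 236 in BMPR1a-deficient libraries. The groups overlapped, with the lowest and the highest of the 6 values both in the BMPR1a-deficient group (log2 fold change -0.11, SE 0.209, limma adjusted p = 0.805). The sign turned without BMPR1a-deficient replicate 1, to 0.088.

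The other receptors with a death domain gave overlapping groups. Fas (ENSMUSG00000024778, chromosome 19, 34290666 to 34327772), which triggers apoptosis through FADD and caspase-8, was at 45.4, 41.2 and 38.6 FPKM in WT and at 29.4, 45.6 and 43.2 in BMPR1a-deficient libraries. Its log2 fold change was -0.10 (SE 0.184, limma adjusted p = 0.800), and 0.090 without replicate 1 of the BMPR1a-deficient group, the library with the lowest value. Tnfrsf25 (ENSMUSG00000024793, chromosome 4, 152115934 to 152120119) encodes DR3, the receptor of TL1A and a costimulator of regulatory T cells. It was at 20.3, 16.3 and 21.2 FPKM in WT and at 14.96, 18.8 and 16.5 in BMPR1a-deficient libraries (log2 fold change -0.19, SE 0.138, limma adjusted p = 0.547). The 95% intervals of these 2 genes ran from -0.55 to 0.35 for Fas and from -0.53 to 0.15 for Tnfrsf25, so both held 0 and reached further below it than above.

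**Figure D2:**
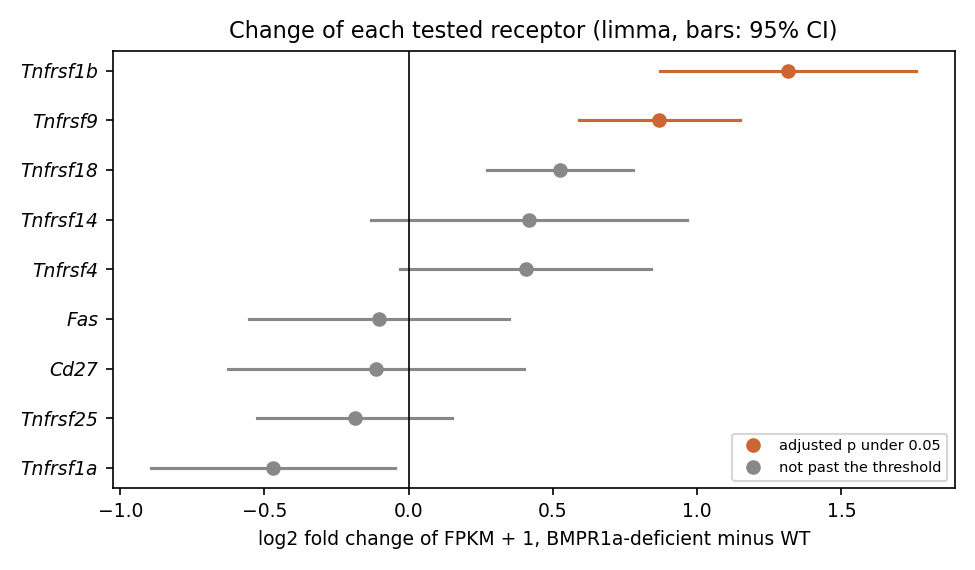
Log2 fold change of FPKM + 1, BMPR1a-deficient minus WT, for the 9 tested receptors, with limma 95% intervals over 3 libraries per group. Tnfrsf1b (1.31) and Tnfrsf9 (0.87), in colour, passed the threshold, and the intervals of Tnfrsf18 and Tnfrsf1a also leave out 0 although their adjusted p did not pass.

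BMPR1a-deficient replicate 1 held the lowest of the 6 values for 4 of the 10 receptors (Tnfrsf1a, Tnfrsf25, Cd27 and Fas) and the highest for 2 (Tnfrsf14 and Tnfrsf8). This was also the library with low mitochondrial transcripts, and the part of that in these values was not tested. How often this library held the lowest or highest value over all tested genes was not counted. Without it, 2 receptors passed the threshold, Tnfrsf9 and Tnfrsf4, both higher. In that fit 210 of all 13413 tested genes were called, 134 higher and 76 lower. Of the 6 fits that left out 1 library, Tnfrsf4 passed in 1, this one. The fold of the mean over WT was then 2.55 for Tnfrsf1b, 1.91 for Tnfrsf9, 1.51 for Tnfrsf4, 1.45 for Tnfrsf18 and 0.785 for Tnfrsf1a.

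In WT the receptors formed steps. Cd27 was highest (236 ± 27.4 FPKM, SD, n = 3), then Tnfrsf18 (135 ± 9.92) and Tnfrsf9 (133 ± 8.06), whose library ranges overlapped, then Tnfrsf4 (94.9 ± 5.90). Tnfrsf1b, Fas and Tnfrsf14 followed at 41.9, 41.7 and 40.1 FPKM with overlapping ranges, and Tnfrsf25, Tnfrsf1a and Tnfrsf8 came last in separate steps. In BMPR1a-deficient aTreg Tnfrsf9 had the highest mean (243 ± 19.8), with a range that overlapped that of Cd27 (221 ± 51.7), whose range overlapped that of Tnfrsf18 (194 ± 4.79). Tnfrsf4 (128 ± 26.4) and Tnfrsf1b (104 ± 7.02) overlapped, and Tnfrsf1b no longer overlapped Fas and Tnfrsf14. In mean FPKM over the 6 libraries Cd27, Tnfrsf9, Tnfrsf18 and Tnfrsf4 were above 95.7%, 94.8%, 94.2% and 91.6% of all tested genes, and Tnfrsf1a above 43.6%.

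**Figure D3:**
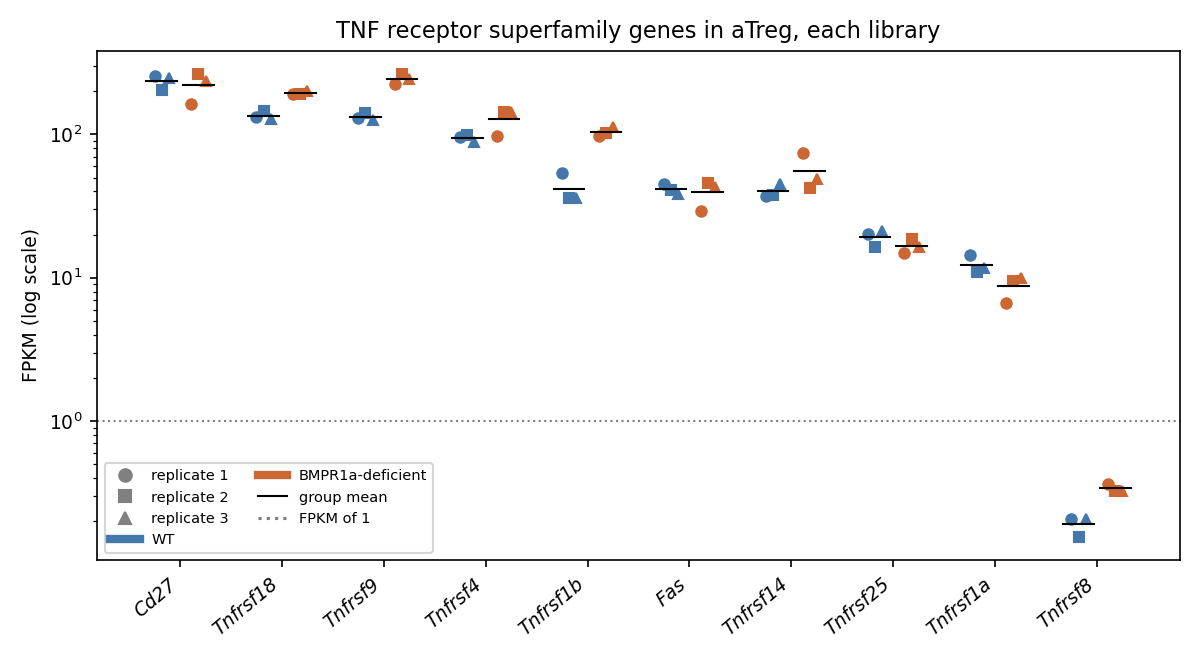
FPKM of the 10 receptors in each library on a log axis, ordered by WT mean, with blue for WT, orange for BMPR1a-deficient, marker shapes for replicates 1 to 3, black lines for group means and a dotted line at the filter of 1 FPKM. Tnfrsf1b, Tnfrsf9, Tnfrsf18 and Tnfrsf8 lie higher without overlap in the BMPR1a-deficient libraries, and Tnfrsf1a lower. Of these only Tnfrsf1b and Tnfrsf9 passed the threshold, and Tnfrsf8 lies below the line in every library.

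The FPKM of the 10 receptors had a WT sum of 754 ± 25.9 and a BMPR1a-deficient sum of 1011 ± 97.5 (SD, n = 3 each). Cd27 made up 32.4%, 27.8% and 33.5% of that sum in WT and 18.2%, 24.4% and 22.4% in BMPR1a-deficient libraries. Tnfrsf9 made up 16.5%, 19.3% and 17.1% and then 24.9%, 24.3% and 23.1%, and Tnfrsf1b 5.53 ± 1.18% and 10.3 ± 0.771%. The shares of Tnfrsf9, Tnfrsf1b and Tnfrsf8 were higher in all BMPR1a-deficient libraries than in the WT ones, without overlap. Those of Cd27, Tnfrsf1a, Tnfrsf25 and Fas were lower in the same way. The FPKM of Cd27, Tnfrsf25 and Fas themselves overlapped between the groups. Shares of one sum depend on each other and were not tested.

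**Figure D4:**
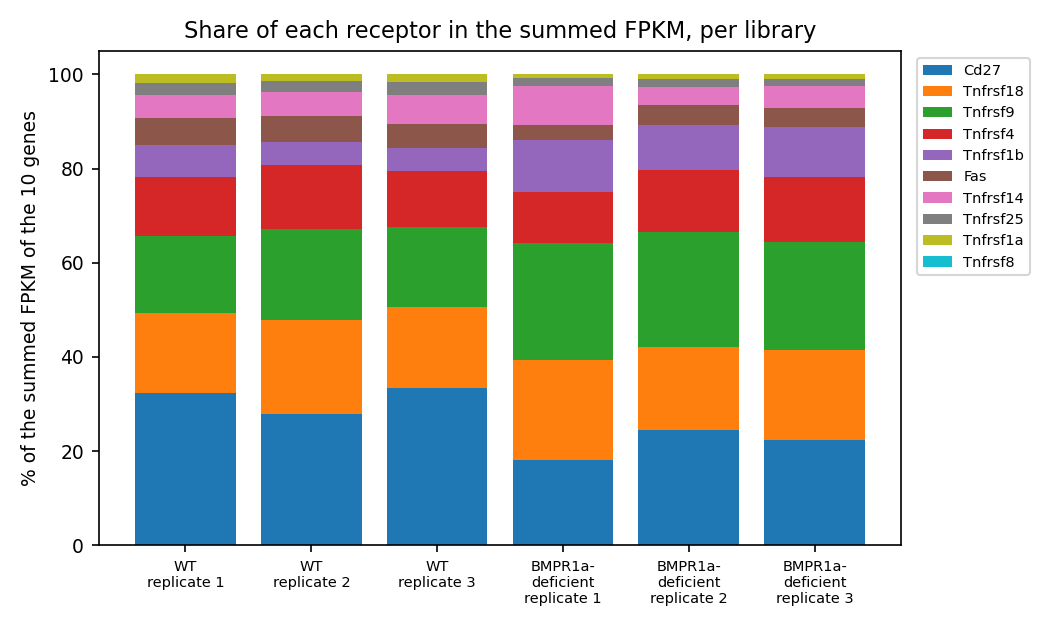
Percent of the summed FPKM of the 10 receptors taken by each gene, 1 stacked bar per library. The Cd27 part at the base is 27.8% to 33.5% in WT and 18.2% to 24.4% in BMPR1a-deficient libraries, and the Tnfrsf9 and Tnfrsf1b parts are larger in the latter.

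Position is a feature that the choice of genes did not use. Of the 10 receptors, 7 lie on chromosome 4 within 10.8 megabases (145213463 to 156028895), and Cd27 and Tnfrsf1a lie close together on chromosome 6. Tnfrsf1b and Tnfrsf8 are adjacent protein-coding genes on the minus strand, and Tnfrsf4 and Tnfrsf18 on the plus strand. Both called receptors were on chromosome 4. Among 132 other tested genes in that span limma called 0, with 8 at an unadjusted p under 0.05 and a median log2 fold change of 0.032. On the rest of chromosome 4, 4 of 735 tested genes were called, all higher, with 118 at an unadjusted p under 0.05 and a median of 0.067. Over all tested genes 1.07% were called and 15.2% were at that unadjusted p, with a median of 0.038.

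The 12 genes for ligands that these receptors are known to bind were taken from the ligand list, and 9 passed the filter. Of these, 0 were called higher and 1 was called lower, where 0.746% and 0.321% of all tested genes were. Btla, the inhibitory receptor that HVEM engages, was at 23.9, 26.3 and 27.6 FPKM in WT and fell to 13.7, 15.7 and 15.4 (log2 fold change -0.76, SE 0.1003, limma adjusted p = 0.0388). Its groups were well apart, but with 1 library removed at a time it passed in 1 of 6 fits, that without BMPR1a-deficient replicate 1. Cd160 and Tnfsf14, whose products HVEM also binds, lay the other way without passing. Cd160 was at 25.9, 19.0 and 21.6 FPKM in WT and 35.3, 47.8 and 42.8 in BMPR1a-deficient libraries (limma adjusted p = 0.0778). Tnfsf14, which encodes LIGHT, was at 4.33 ± 0.703 and 7.98 ± 1.001 FPKM (SD, n = 3, limma adjusted p = 0.0849).

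Ligands of the called receptors gave overlapping groups. Tnfsf9, the 4-1BB ligand, was at 1.36 to 2.82 FPKM over the 6 libraries, and Tnf, the ligand of TNFR1 and TNFR2, at 2.98 to 9.70. Lta, which both TNF receptors also bind, was at 11.0 to 24.3 FPKM, and Fasl, the ligand of Fas, at 1.34 to 2.96, also with overlapping groups. Tnfsf8, the CD30 ligand, was at 11.1, 15.7 and 15.6 FPKM in WT and 15.7, 28.8 and 33.6 in BMPR1a-deficient libraries (limma adjusted p = 0.309), and Tnfsf4, the OX40 ligand, at 5.53 ± 1.07 and 9.19 ± 4.39 (SD, n = 3, limma adjusted p = 0.477). Cd70, Tnfsf15 and Tnfsf18, the ligands of CD27, DR3 and GITR, were at 0.447 FPKM or lower in every library. Over the whole list of 20 ligands 13 were tested, with a median log2 fold change of 0.31, against 0.04 over all tested genes. At an unadjusted p under 0.05 in limma there were 7 of the 13, against 15.2% of all tested genes. Without overlap 4 lay higher and 2 lower, where 15.9% and 10.4% of all tested genes did so.

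Of 18 other receptors of the superfamily 17 were found and 9 tested, and 2 were called, both higher, where 0.746% of all tested genes were. At an unadjusted p under 0.05 in limma there were 4 of the 9, against 15.2% of all tested genes. Without overlap 3 lay higher and 1 lower, against 15.9% and 10.4%. Tnfrsf13c, which encodes the BAFF receptor, was at 4.01, 3.42 and 3.24 FPKM in WT and rose to 9.22, 10.1 and 9.07 (log2 fold change 1.20, SE 0.105, limma adjusted p = 0.0142). Cd40, best known on B cells and antigen-presenting cells, rose from 3.99, 5.30 and 3.08 FPKM to 9.62, 10.1 and 10.9 (log2 fold change 1.15, SE 0.172, limma adjusted p = 0.0496). Both sets of groups were apart. With 1 library removed at a time, Tnfrsf13c passed in 2 of 6 fits and Cd40 in 0. B cells carry both genes. Of the 8 B cell markers 0 were called and 1 was at an unadjusted p under 0.05, with 15.2% of all tested genes there. Their median log2 fold change was 0.19, positive in 7 of 8, where 55.5% of all tested genes were positive. Only Blk had groups that did not overlap. The part of B cells in the changes of Tnfrsf13c and Cd40 was not tested.

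Further along the pathway limma called 0 of the 13 TRAF adaptors and partners, 0 of 12 genes of the death domain and caspase branch, 0 of 15 kinases and ubiquitin enzymes and 0 of 11 NF-kappaB subunits and IkappaB proteins. Over all tested genes 1.07% were called. At an unadjusted p under 0.05 there were 3, 1, 2 and 6 of them, where the share over all tested genes was 15.2%. The median log2 fold changes were 0.050, 0.13, -0.032 and 0.14, against 0.04 over all genes. Traf1, an adaptor of TNFR2 and 4-1BB, was at 125, 110 and 127 FPKM in WT and 89.0, 92.4 and 95.9 in BMPR1a-deficient libraries, without overlap (log2 fold change -0.38, limma adjusted p = 0.183). Traf4 lay the other way, at 20.8 ± 3.00 and 28.4 ± 1.27 FPKM (SD, n = 3, limma adjusted p = 0.197).

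In the death domain branch Tradd, the TNFR1 adaptor, had group means of 18.2 ± 1.44 (WT) and 24.0 ± 7.004 FPKM (SD, n = 3, limma adjusted p = 0.461), with its highest value, 32.0, in BMPR1a-deficient replicate 1. Among the kinases and ubiquitin enzymes, Map3k7, which encodes TAK1, was at 29.1 ± 3.28 and 39.7 ± 3.84 FPKM (SD, n = 3, limma adjusted p = 0.194), and Tnip1, a partner of A20, at 57.8 ± 4.88 and 72.0 ± 5.61 (adjusted p = 0.285). Among the NF-kappaB genes, Nfkbie, the inhibitor IkappaB-epsilon, was at 18.2, 14.9 and 16.6 FPKM in WT and 33.0, 25.9 and 29.5 in BMPR1a-deficient libraries (log2 fold change 0.79, limma adjusted p = 0.0580). Bcl3 was at 62.3 ± 12.6 and 38.5 ± 15.6 FPKM (SD, n = 3, limma adjusted p = 0.377), with its lowest value in BMPR1a-deficient replicate 1. None of these passed the threshold.

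**Figure D5:**
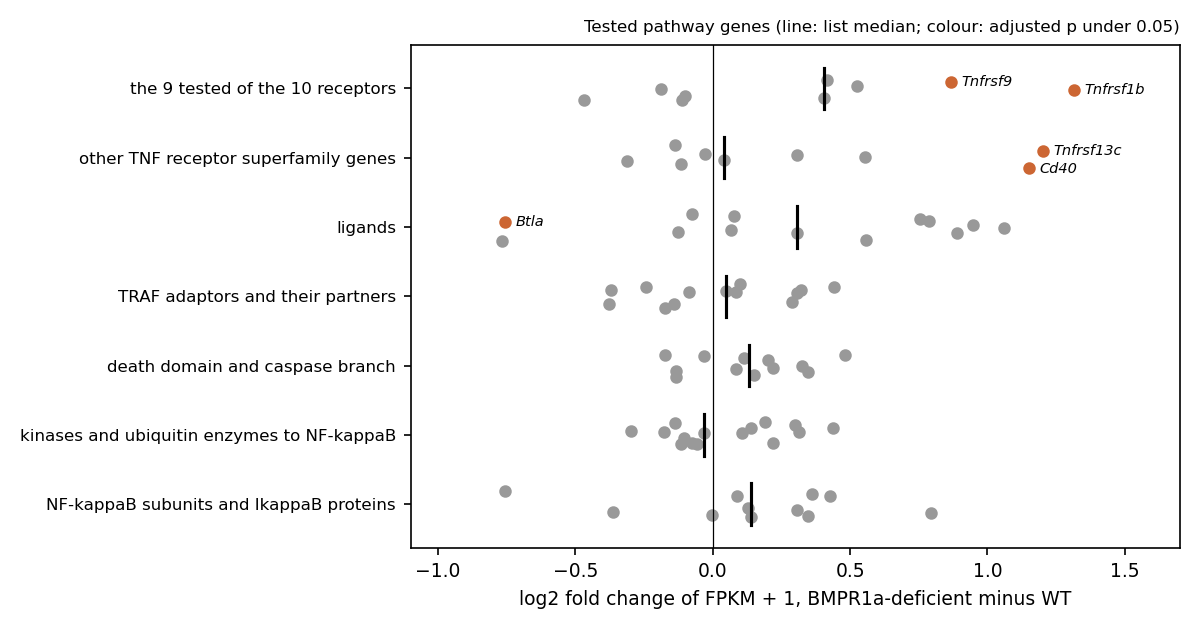
Log2 fold change of FPKM + 1, BMPR1a-deficient minus WT, of the tested genes in 7 lists of the TNF receptor pathway, 1 point per gene (heights within a list are arbitrary) and a black line at each list's median. Coloured, named points passed the threshold: Tnfrsf1b, Tnfrsf9, Tnfrsf13c and Cd40 higher and Btla lower.

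Genes with the most similar profile over the 6 libraries were named for the 2 called receptors, by the root mean square difference of log2(FPKM + 1) centred on each gene's own mean. For Tnfrsf1b they were Ldlrad4 (0.048), Ninj1 (0.091) and Ikzf4 (0.098). Ldlrad4, an inhibitor of TGF-beta signalling, was at 9.63 ± 2.61 and 24.7 ± 2.33 FPKM (SD, n = 3). For Tnfrsf9 they were Nr4a3 (0.056), a nuclear receptor gene induced by T cell receptor signals, Fam234b (0.059) and Fdx1 (0.064). Nr4a3 was at 24.4 ± 1.67 and 43.1 ± 3.34 FPKM (SD, n = 3). These are likenesses within 6 libraries that form a pair of groups, so any gene with a like fold change scores well.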

How the data were processed

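RNA was sequenced from sorted aTreg in 3 WT and 3 BMPR1a-deficient libraries. The authors deposited FPKM values, 1 column per library. TopHat2, Cufflinks and Cuffdiff and the build GRCm38.p4 are named per the submitters' processing notes, but no source used here gives settings, annotation, strand handling or scaling between libraries. Columns were matched to samples by title, with 0 unmapped. GENCODE on GRCm38 gave symbols for 24876 of 25759 identifiers (96.6%).

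The filter kept genes whose FPKM averaged 1 or more over the libraries. Values were taken as log2(FPKM + 1) and the groups compared in limma 3.58.1 (R 4.3.3), using trended eBayes, two-sided p-values and Benjamini-Hochberg adjustment at 0.05. A fold change on this scale understates the change of low genes. Count models were left out because FPKM are not counts. Depth was estimated from FPKM times length in 1-transcript genes, where the densest value between 10 and 100 was taken as 1 fragment, which is approximate. On simulated data for this comparison (13413 genes) 52% of genes changed by log2 1 were called, and 93% of those changed by log2 2, while 3.97% of calls were of unchanged genes.

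The receptors, gene lists and tests were chosen with earlier results of these data known. Named genes are the 10 receptors, up to 4 called genes of each pathway list by adjusted p or otherwise the 2 with the largest absolute fold change, markers and known ligands beside a result, and the 3 genes nearest in profile to each called receptor. Not every gene that this rule names is reported here. The alternatives were 16 planned and 1 added after the data were seen. Same-numbered libraries of the groups had deviations that correlated at 0.010, 0.064 and 0.052, so the numbers were not taken as pairs.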

Additional observations from a re-analysis of the deposited data

How the results depend on the processing

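Directions of Tnfrsf1b, Tnfrsf9, Tnfrsf18, Tnfrsf4, Tnfrsf14, Tnfrsf1a and Tnfrsf25 were the same under all 17 alternatives. The number of receptors called was 2 in the main analysis. It was 1 with no filter and 1 with upper-quartile scaling, where Tnfrsf1b (log2 fold change 1.31 and 1.27) was lost. It was 4 with sample weights and 0 with a replicate block. Over all tested genes, 158 of 24025 were called with no filter and 118 of 13413 with upper-quartile scaling. With the block, log2 fold changes of 1.31 (Tnfrsf1b) and 0.87 (Tnfrsf9) had limma adjusted p of 0.149 and 0.144, and the 143 genes called fell to 10. The labels do not say whether same-numbered libraries belong together, and why the block lowered these counts was not tested. With limma sample weights 1240 of 13413 genes were called. Tnfrsf4 (0.61) and Tnfrsf18 (0.56) passed as well there, and Cd27 (0.057) and Fas (0.11) turned positive.

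With each library left out in turn, the count of called genes ran from 14 to 210 and that of receptors from 0 to 2. Such fits have fewer libraries and less power. Log2 fold changes ran from 1.22 to 1.51 for Tnfrsf1b, 0.81 to 0.93 for Tnfrsf9, 0.31 to 0.59 for Tnfrsf4, -0.25 to 0.088 for Cd27 and -0.22 to 0.090 for Fas, and the Tnfrsf4 minus Tnfrsf18 difference from -0.22 to 0.053. The cause of these shifts was not tested. The change of balance between Tnfrsf1b and Tnfrsf1a ran from 1.67 to 1.87 over its 9 alternatives. FPKM without counts give no counting error for low genes such as Tnfrsf8.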
